A study of Mus musculus with 2 samples.

Results

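The genes of the constitutive proteasome and of its activators, its inhibitor and its assembly chaperones were examined in mouse macrophages. Every gene listed in either library was taken whose symbol begins with Psma, Psmb, Psmc, Psmd, Psme, Psmf or Psmg followed by a digit, and the immunoproteasome subunits Psmb8, Psmb9 and Psmb10 were left out. This gave 48 of the 15623 genes listed, and all 48 were listed in both libraries. The cells were macrophages of wild-type C57BL/6 mice, young adults by the methods of the study, that thioglycolate had drawn into the peritoneal cavity. They were selected by adherence and starved in medium with little serum. One group received nothing further (nontreated, NT) and the other received mouse IL-4 for 6 h, the interleukin that drives alternative (M2) polarization, with no other agent or allele between the groups. The tissue label reads bone marrow, while the source label reads peritoneal macrophages. The number of mice behind a library, and whether mice were pooled, were not given in the sources used here.

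Each of the 2 groups held 1 library, with 11035641 expected counts (estimated reads assigned to a gene) for NT and 11250099 for IL-4, so no difference could be set against the spread between animals. All 7 macrophage markers examined were detected, and their summed level was 17077 CPM (counts scaled to the library total) for NT and 17395 CPM for IL-4. Markers of T cells, B cells, neutrophils, eosinophils, mast cells and erythroid cells summed to at most 6.89 CPM per list in either library. The list of mesothelial and fibroblast markers summed to 94.9 CPM in NT and 77.4 CPM in IL-4, and its part in the results was not tested. In bulk RNA, fewer cells of a type and less RNA per cell cannot be told apart.

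The proteasome is the protease that breaks down proteins marked with ubiquitin. Its core particle is a barrel of stacked rings, in which outer rings of alpha subunits form the gate and inner rings of beta subunits carry the catalytic sites. A regulatory particle caps the barrel, with a ring of ATPases that unfolds the substrate and pulls it in, and non-ATPase subunits that bind ubiquitin chains and remove them. Alternative caps, the activators, open the gate without ATP. In macrophages the proteasome supplies peptides for presentation on MHC class I and degrades inhibitors of NF-kB, and inflammatory stimuli such as interferon-gamma replace catalytic subunits with their immunoproteasome counterparts.

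Most proteasome genes were slightly more abundant in the IL-4 library. Of the 48 genes, 39 had a ratio of IL-4 over NT above 1. For 28 the 95% counting interval of the log2 ratio lay wholly above 0, for 3 it lay wholly below, and for 17 it held 0. Over all 15593 genes tested, the interval was above 0 for 17.9% and below 0 for 20.4%. The genes that were lower were Psmd8 and Psmd2, subunits of the regulatory particle, and Psme2b, a copy of an activator gene. These intervals cover counting error between the libraries only.

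The changes were small. The median log2 ratio was 0.22 over the 45 genes that reached 50 counts in one of the libraries. For this comparison the study set cutoffs of 0.75 on the log2 scale, a p-value of 0.05 and a false discovery rate of 0.5. By these, 1 gene was called higher, Psma8, and 1 was called lower, Psme2b. Both had few reads. Among all genes tested, 4.07% were called higher and 6.28% lower, so the shares of the proteasome genes did not lie above the background.

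**Figure D1:**
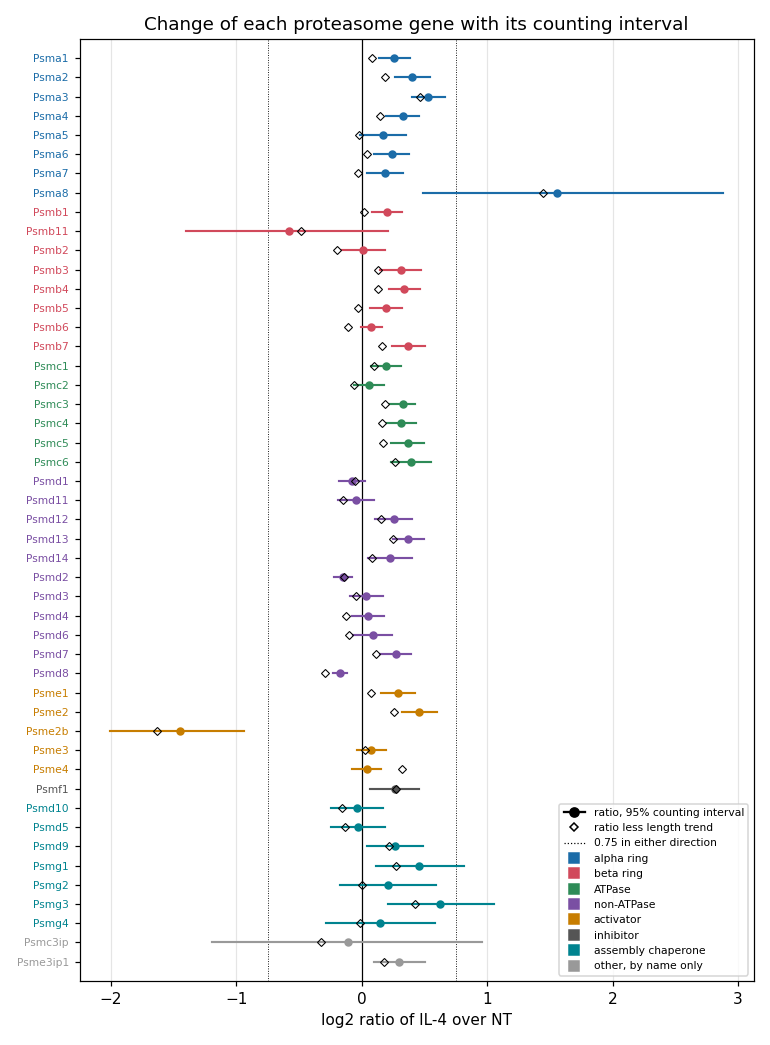
Log2 ratio of IL-4 over NT (horizontal axis) for each of the 48 genes, coloured by role, with 1 library a group. Filled circles with lines are the ratios with their 95% counting intervals, open diamonds are the ratios after the length trend was subtracted, and dotted lines mark 0.75 in either direction. The circles of the alpha ring and the ATPases lie to the right of 0, those of the non-ATPase subunits spread from -0.17 to 0.37, and Psma8 and Psme2b lie beyond the dotted lines.

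Since an interval narrows with depth, the genes with at least 200 reads in both libraries together were set apart. There were 43 such proteasome genes, with a median of 1888 reads, and 8461 such genes in all, with a median of 932. Depth was thus not matched. The 43 include Psme3ip1, which the name pattern took in though it is not part of the proteasome. The interval was above 0 for 27 of the 43 (62.8%), against 28.0% of all genes at this depth. It was below 0 for 2 of the 43 (4.65%), against 30.2% of all. The 43 genes had a median log2 ratio of 0.24, against 0.0015 for all. The proteasome genes were also short, with a median transcript length of 1436 bases against 2918, and length moved with the ratio in these libraries. Class values are therefore also given less the length trend, the median ratio of the 200 genes closest in length.

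The alpha ring was higher in the IL-4 library as measured. Its 8 genes together had 5259 expected counts in NT and 6681 in IL-4, a 1.25-fold difference in scaled counts with a log2 ratio of 0.32 (95% interval 0.27 to 0.37). The interval lay above 0 for 7 of 8, the exception being Psma5. Less the length trend it lay above 0 for 4 and below for 0, and the median ratio went from 0.26 to 0.084. In the core particle the alpha subunits close the barrel with their N-terminal tails and bind the caps.

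Psma3 (chromosome 12, 70969283 to 70995877, GRCm38) had the largest ratio of the abundant subunits. It had 774.82 expected counts in NT and 1140.87 in IL-4, or 29.5 and 42.6 FPKM, a log2 ratio of 0.53 (0.40 to 0.66). Its counts were not whole, which means that some reads were divided among transcripts of different genes, and 16.2% of its 31-base words were found in the predicted gene Gm13835. Psma2 (chromosome 13, 14613242 to 14625673) went from 740 to 998 counts, or from 71.08 to 93.98 FPKM, a log2 ratio of 0.40 (0.27 to 0.54). Psma4 (chromosome 9, 54950781 to 54958034) went from 847 to 1083 counts, a ratio of 0.33 (0.20 to 0.46).

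The other abundant alpha genes differed less. Psma1 (948 and 1156 counts), Psma6 (774 and 930) and Psma7 (711 and 824) had log2 ratios of 0.26, 0.24 and 0.18. Psma5 had 455 and 521 counts, and its ratio of 0.17 had an interval from -0.017 to 0.35. On the FPKM scale, which allows for length, these 7 genes lay within a 2.43-fold range in NT and a 2.44-fold range in IL-4. Psma3 had the lowest FPKM of the 7 in NT, and Psma5 had the lowest in IL-4, at 38.5.

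Psma8 encodes an alpha subunit of the testis that takes the place of Psma7 in germ cells. It had 9 counts in NT and 28 in IL-4, or 0.48 and 1.47 FPKM, a log2 ratio of 1.56 (0.49 to 2.88). Psma7, for comparison, stood at 78.0 FPKM in IL-4. The call of Psma8 was lost with 1 added to FPKM and with an assumed coefficient of variation of 0.4.

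The beta ring, which holds the active sites, was higher as a class only before length was allowed for. Its 8 genes summed to 7240 counts in NT and 8442 in IL-4, a log2 ratio of 0.19 (0.15 to 0.24). The interval lay above 0 for 5 of 8, and for Psmb2, Psmb6 and Psmb11 it held 0. Less the length trend the median ratio went from 0.20 to 0.016, with 2 intervals above 0, 2 below and 4 that held 0. The beta genes were the most abundant of the core particle, with a median of 93.3 FPKM in NT and 114 in IL-4 among the 7 with at least 50 counts.

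The catalytic subunits did not move alike. Psmb7 (chromosome 2, 38588046 to 38643952), which carries the trypsin-like activity, had 815 counts in NT and 1074 in IL-4, or 77.8 and 100.5 FPKM, a log2 ratio of 0.37 (0.24 to 0.50). Psmb5 (chromosome 14, 54614120 to 54617995), which carries the chymotrypsin-like activity, had 934 and 1091 counts, or 99.6 and 114.1 FPKM, a ratio of 0.20 (0.069 to 0.32). Psmb6 (chromosome 11, 70525324 to 70527858), which carries the caspase-like activity, had 2277 and 2447 counts, or 202.7 and 213.6 FPKM, a ratio of 0.076 (-0.0068 to 0.16). The intervals of Psmb7 and Psmb6 did not overlap, and that of Psmb5 overlapped both. Among the alpha and beta ring genes of this set, Psmb6 remained the most abundant in both libraries. The immunoproteasome subunit Psmb10, left out of the set, stood above Psmb6 in the IL-4 library, at 274 FPKM.

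Among the structural beta subunits, Psmb4 (957 and 1233 counts) and Psmb3 (549 and 694) had log2 ratios of 0.34 and 0.31, and Psmb1 (1114 and 1305) had 0.20. Psmb2 was nearly level, with 559 and 574 counts, a ratio of 0.010 (-0.16 to 0.18). Psmb11 encodes the catalytic subunit of the thymus. It had 35.04 counts in NT and 23.79 in IL-4, at most 0.74 FPKM, a ratio of -0.58 (-1.40 to 0.21), so its levels could not be told apart at this depth. Its counts were not whole, and 1.53% of its 31-base words occurred in Ebpl.

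**Figure D2:**
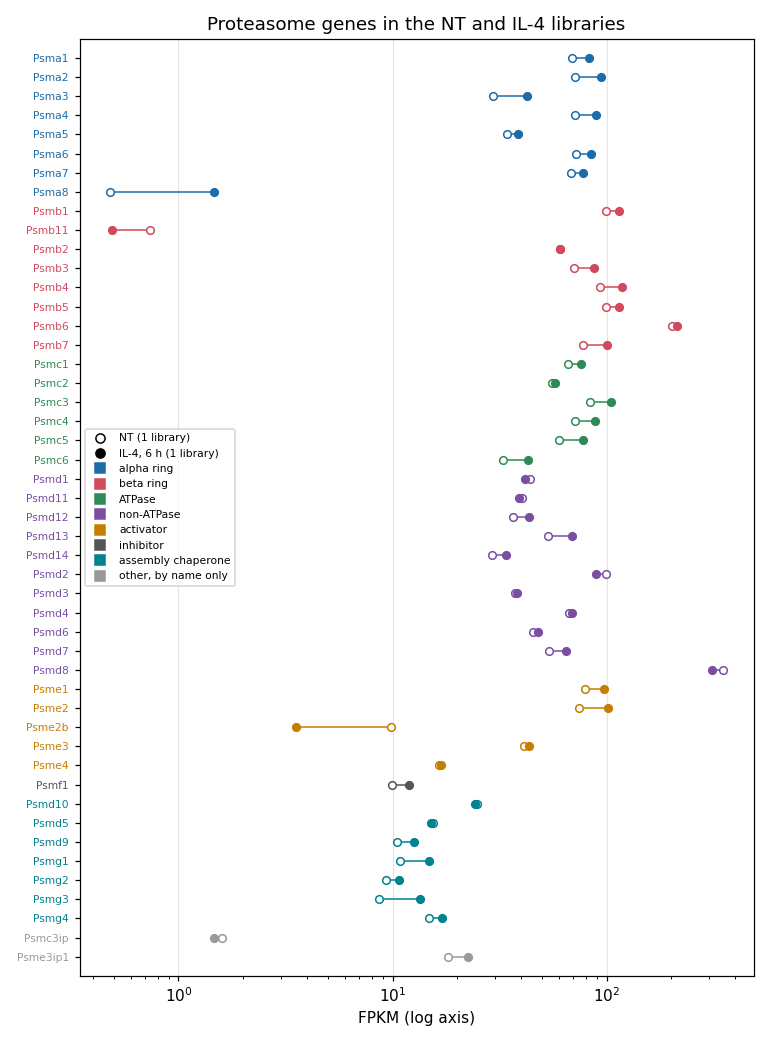
FPKM (horizontal log axis) of each of the 48 genes in the NT library (open circles) and the IL-4 library (filled circles), with 1 library a group and colours by role. Psmd8 at 349 and 310 FPKM and Psmb6 at 203 and 214 lie to the right of all other genes, and Psma8, Psmb11 and Psmc3ip lie at or below 1.60.

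The ATPases, which form the motor ring of the regulatory particle, were higher as a class. The 6 genes summed to 6204 counts in NT and 7618 in IL-4, a log2 ratio of 0.27 (0.22 to 0.32), which overlapped that of the alpha ring. Their median ratio, 0.32, was above that of the alpha ring, and less the length trend it was 0.17, with 4 intervals above 0 and 0 below. Psmc6 (chromosome 14, 45329823 to 45349074) had the largest ratio, 0.39 (0.23 to 0.55), with 562 and 751 counts. Psmc5 (837 and 1100 counts), Psmc3 (1512 and 1932) and Psmc4 (1114 and 1412) had ratios of 0.37, 0.33 and 0.31, and Psmc1 (1089 and 1269) had 0.19. The exception was Psmc2, with 1090 and 1154 counts and a ratio of 0.055 (-0.066 to 0.18). Its interval did not overlap those of Psmc3, Psmc4, Psmc5 or Psmc6.

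The non-ATPase subunits were not higher as a class. Their 11 genes summed to 17084 counts in NT and 17097 in IL-4, a log2 ratio of -0.027 (-0.057 to 0.0040). The interval lay above 0 for 4, below 0 for 2 and held 0 for 5. The median ratio was 0.046, and -0.057 less the length trend. The sum was set by its most abundant members, since without Psmd8 and Psmd2 the other 9 genes went from 7927 to 8762 counts, a ratio of 0.12 (0.073 to 0.16). That exclusion was chosen after the values were seen.

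Psmd8 (chromosome 7, 29174187 to 29180673), a subunit of the lid, the part that removes ubiquitin, was the most abundant proteasome transcript. It had 5859 counts in NT and 5300 in IL-4, or 349.3 and 309.8 FPKM, a log2 ratio of -0.17 (-0.23 to -0.12). Psmd2 (chromosome 16, 20651122 to 20663414), a large scaffold of the base that docks ubiquitin carriers, had 3298 and 3035 counts, or 99.0 and 89.3 FPKM, a ratio of -0.15 (-0.22 to -0.076). Both were lower in the IL-4 library beyond counting error, though each by less than 1.2-fold. The other scaffold of the base, Psmd1 (1587 and 1532 counts, 43.9 and 41.5 FPKM), had a ratio of -0.079 (-0.18 to 0.024).

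The 4 subunits with intervals above 0 all belong to the lid. Psmd13 (chromosome 7, 140882394 to 140898642) went from 914 to 1206 counts, a log2 ratio of 0.37 (0.25 to 0.50). Psmd7 (953 and 1172 counts), Psmd12 (691 and 840) and Psmd14 (497 and 591) had ratios of 0.27, 0.25 and 0.22. Psmd14 is the deubiquitinase of the lid, and Psmd7 is its partner. The lid genes Psmd6 (647 and 701 counts) and Psmd3 (893 and 934) had ratios of 0.088 and 0.037, and Psmd4, a ubiquitin receptor with 976 and 1027 counts, had 0.046. Psmd11, also of the lid, had 769 and 759 counts, or 40.1 and 38.8 FPKM, a ratio of -0.047 (-0.19 to 0.10). All 4 of these intervals held 0.

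Among the activators, the intervals of Psme1 and Psme2 lay above 0 as measured. These genes, neighbours on chromosome 14, encode the subunits of the interferon-inducible cap that works with the immunoproteasome. Psme1 (55578494 to 55581527) had 841 counts in NT and 1047 in IL-4, or 79.6 and 97.1 FPKM, a log2 ratio of 0.29 (0.16 to 0.42). Psme2 (55587440 to 55591101) had 725.96 and 1016.22 counts, or 74.5 and 102 FPKM, a ratio of 0.46 (0.32 to 0.60). Their intervals overlapped. Less the length trend Psme2 stayed above 0, at 0.26 (0.12 to 0.40), and Psme1 did not, at 0.073 (-0.059 to 0.21). The counts of Psme2 were not whole, and 617 of the 1841 31-base words of all its transcripts (33.5%) occur in Psme2b. The weighted length of Psme2 was only 903 bases in NT, so the share of the measured transcript may be larger. Its separate value is therefore uncertain. Summed with Psme2b, its interval was 0.17 to 0.44, which held the length trend of Psme2, 0.20.

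For the activators of the nucleus the intervals held 0 as measured, but that of Psme4 did not once length was allowed for. Psme3 (chromosome 11, 101316213 to 101323537), whose product forms a cap of its own, had 1192 counts in NT and 1279 in IL-4, or 41.1 and 43.2 FPKM, a ratio of 0.074 (-0.041 to 0.19). Psme4 (chromosome 11, 30771775 to 30881150), which encodes a large activator linked to the turnover of acetylated histones, had 1184 and 1239 counts, or 16.4 and 16.8 FPKM, a ratio of 0.038 (-0.078 to 0.15). Psme4 has the longest transcript of the 48, at 6454 bases, and less the length trend it had 0.32 (0.21 to 0.44), the highest of the 5 activators, while Psme3 had 0.029 (-0.086 to 0.14). The span of Psme4 overlaps that of Erlec1. As measured, the interval of Psme1 overlapped that of Psme3, and no difference between activators was tested.

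Psme2b (chromosome 11, 48945345 to 48946410), a copy of Psme2, moved the other way. It had 113.32 counts in NT and 42.03 in IL-4, or 9.80 and 3.56 FPKM, a log2 ratio of -1.45 (-2.01 to -0.94). Its separate value is uncertain, because 76.5% of its 31-base words are shared with Psme2. The summed counts of Psme2 and Psme2b were 839.28 in NT and 1058.25 in IL-4, a ratio of 0.31 (0.17 to 0.44). Psme2b also overlaps the gene 9930111J21Rik1 by 261 bases, and the counts of that gene went from 688.82 to 277.34. The part of either in the fall of Psme2b was not tested.

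The inhibitor and the assembly chaperones were the least abundant groups. Psmf1 (chromosome 2, 151716062 to 151744199), which blocks the core particle in vitro, had 393 counts in NT and 481 in IL-4, or 9.93 and 11.9 FPKM, a log2 ratio of 0.26 (0.069 to 0.46). Psmg1 to Psmg4 encode chaperones that pair up to build the alpha ring. Psmg3 (chromosome 5, 139823613 to 139826894) had 78 and 123 counts, or 8.65 and 13.4 FPKM, a ratio of 0.63 (0.21 to 1.06), and Psmg1 (chromosome 16, 95979933 to 95990960) had 119 and 167 counts, or 10.8 and 14.9 FPKM, a ratio of 0.46 (0.11 to 0.81). These were among the 5 largest ratios of genes with at least 50 counts, but their intervals were wide.

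The remaining chaperones were nearer to level. Psmg2 (107 and 126 counts, 9.31 and 10.8 FPKM) had a ratio of 0.21 (-0.18 to 0.59). Psmg4 (85 and 96 counts, 14.8 and 17.1 FPKM) had 0.15 (-0.29 to 0.59). The weighted length of Psmg4 differed by -4.14% in the IL-4 library, the largest such change among the 7 genes whose length differed at all. Of the chaperones of the ATPase ring, Psmd9 (303.75 and 372.1 counts) had a ratio of 0.26 (0.043 to 0.49), while Psmd10 (395 and 392) and Psmd5 (353 and 352) were at -0.039 and -0.032. Psmd9 shares 25.0% of its 31-base words with the gene Gm26745, so its value is less certain. The median ratio of the 7 chaperones was 0.21, and 0.0048 less the length trend.

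The name pattern also took in 2 genes that are not parts of the proteasome. Psmc3ip, a factor of meiotic recombination, had 17 counts in NT and 16 in IL-4. Psme3ip1, whose product binds the Psme3 activator, had 364 and 457 counts, a log2 ratio of 0.30 (0.099 to 0.50). Leaving both out would not change which subunit classes were higher, since neither was counted in a class. Both are counted among the 48, and Psme3ip1 also among the 43 genes with at least 200 reads.

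**Figure D3:**
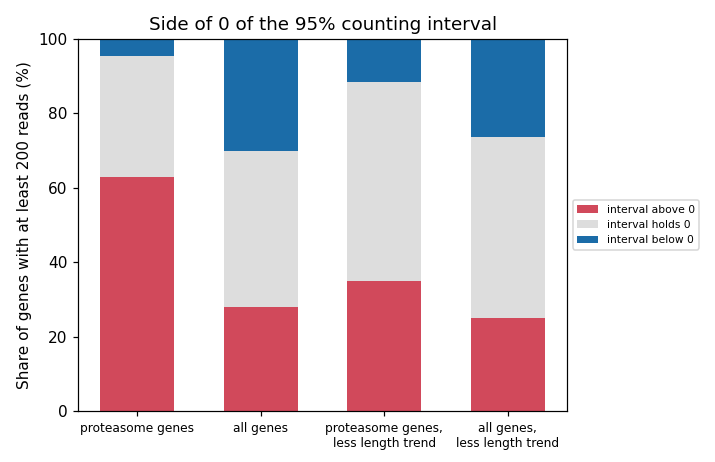
Share of genes (vertical axis, percent) whose 95% counting interval of the log2 ratio lay above 0, held 0 or lay below 0. The 43 proteasome genes, Psme3ip1 among them, are set beside all 8461 genes with at least 200 reads. Intervals lay above 0 for 62.8% of proteasome genes against 28.0% of all genes, and for 34.9% against 24.9% once the length trend was subtracted. The 2 sets were not matched for depth.

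Transcript length moved with the ratio across the libraries, and the proteasome genes are short. Among genes with at least 200 reads, divided into 10 equal bins by length, the shortest bin (median 888 bases) had a median log2 ratio of 0.18, and the longest (median 7570) had -0.44. The 16 proteasome genes in the shortest bin had a median ratio of 0.30, and 14 of them lay above the median of that bin. The 14 in the next had a median of 0.24 against 0.16, with 10 above. In the bin after that, 5 proteasome genes had a median of 0.055, below the 0.12 of all genes there.

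Less of the difference was left once this trend was subtracted. The 43 genes then had a median of 0.085, against -0.0009 for all genes. The interval lay above 0 for 15 of 43 (34.9%), against 24.9% of all, and below 0 for 5 (11.6%), against 26.5%. The 43 genes had more reads (median 1888 against 932), and an interval narrows with depth, so these shares are not matched for depth. Whether the length trend came from the stimulation or from the preparation of the libraries cannot be told apart with 1 library a group.

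The genes that stayed above their length-matched median were spread over the complex. Of all 48, 16 had an interval above 0 on this scale. They were Psma2, Psma3, Psma4 and Psma8 in the alpha ring, Psmb4 and Psmb7 in the beta ring, Psmc3, Psmc4, Psmc5 and Psmc6 among the ATPases, Psmd12 and Psmd13 in the lid, Psme2 and Psme4 among the activators, and Psmf1 and Psmg3. The place of Psme2 among them rests on its separate counts, which are uncertain. The trend was subtracted as a fixed value, so these intervals leave out its own error. The lower limits of Psmd12, Psmb4, Psmg3 and Psma4 were 0.0045, 0.0055, 0.0068 and 0.012, so their side of 0 is uncertain. The same holds for Psmd11, listed below, with an upper limit of -0.0030. Psma3 kept the largest value among abundant genes, 0.46. Psme4 entered only on this scale, with 0.32, because genes of its length had a median of -0.29. Below 0 were Psmb2, Psmb6, Psmd2, Psmd8, Psmd11 and Psme2b, of which Psmd8 had -0.30 and Psmb2 -0.20. Psmb5 and Psma7, higher as measured, were at -0.031 and -0.032 on this scale.

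**Figure D4:**
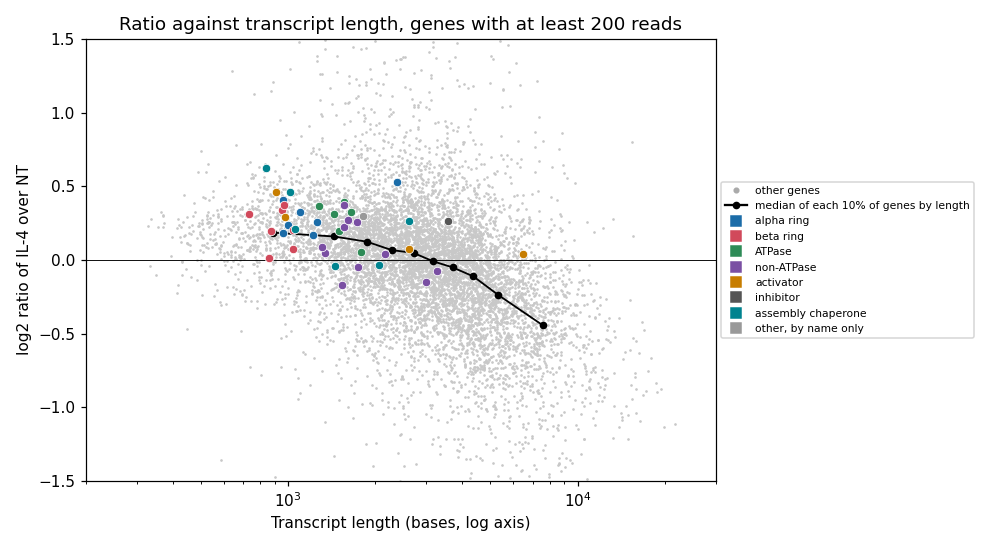
Log2 ratio of IL-4 over NT (vertical axis) against transcript length in bases (horizontal log axis) for genes with at least 200 reads, with proteasome genes in colour by role. The black line joins the medians of 10 equal bins by length, which run from 0.18 to -0.44. Most proteasome genes lie at the left, above or near the line, and 154 of 8418 other genes lie outside the plotted range of ratios.

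Other genes of the pathway were examined from a list of 32 listed genes, which includes the immunoproteasome subunits. For 12 the interval lay above 0, for 9 below and for 11 it held 0, and their median log2 ratio was 0.071. Over all genes with at least 200 reads, 28.0% lay above 0 and 30.2% below, or 24.9% and 26.5% less the trend. Of the 32 genes, 10 lay above 0 and 6 below less the length trend, with a median of 0.036. By the cutoffs the study set for this comparison 2 were called higher and 0 lower. Both were immunoproteasome subunits, and among all genes tested 4.07% were called higher and 6.28% lower. Psmb10, which replaces Psmb7, went from 746 to 3879 counts, or from 53.8 to 274 FPKM, a log2 ratio of 2.35 (2.24 to 2.47), whereas Psmb7 itself had 0.37. Psmb9, which replaces Psmb6, went from 140 to 246 counts, a ratio of 0.78 (0.48 to 1.10), or 0.58 less the length trend. Psmb8, which replaces Psmb5, had 745 and 885 counts, a ratio of 0.22 (0.078 to 0.36), or 0.032 (-0.11 to 0.17) less the trend. In FPKM, Psmb10 passed from below Psmb7 in the NT library to above it in the IL-4 library, while Psmb9 and Psmb8 stayed below Psmb6 and Psmb5 in both.

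Genes that work with the proteasome were mixed. Pomp, which guides assembly of the core particle, went from 940 to 1216 counts, a log2 ratio of 0.34 (0.22 to 0.47), or 0.16 (0.041 to 0.29) less the trend. Sem1, a small subunit outside the name pattern, had 0.25 (0.13 to 0.37), or 0.072 (-0.049 to 0.19) less the trend, and Adrm1, a ubiquitin receptor, had 0.045 (-0.075 to 0.16). Nfe2l1, the factor that raises proteasome genes when the protease is inhibited, had 2705 and 2764 counts and a ratio of 0.0034 (-0.074 to 0.080), which became 0.10 (0.026 to 0.18) less the trend. Ddi2, the protease that activates it, was lower, with a ratio of -0.38 (-0.54 to -0.23). Nfe2l2 was lower too, with 4517 and 4186 counts, a ratio of -0.14 (-0.20 to -0.077), or -0.19 (-0.25 to -0.13) less the trend. Ngly1, the last of the 4 listed genes that control proteasome genes, had -0.11 (-0.35 to 0.13). Zfand5, a proteasome-binding protein, had 2175 and 3533 counts, a ratio of 0.67 (0.59 to 0.75), under the log2 cutoff of 0.75. Its transcript is long, 7385 bases, and less the trend the ratio was 1.13 (1.05 to 1.21). The ubiquitin shuttle gene Ubqln2 was the lowest of the list, with 819 and 533 counts, a ratio of -0.65 (-0.81 to -0.49).

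The promoters of the members were searched for motifs, in the 250 bases before each start given by RefSeq for GRCm38.p6, on both strands. Sequences were at hand for 40 of the 48 genes. The core of the antioxidant response element, TGACNNNGC, through which Nfe2l1 and Nfe2l2 act, was found in 5 of 40 (12.5%), against 14.0% of 6876 genes with at least 200 reads and 10.2% of all 32851 promoters. The CCAAT box was found in 15 of 40 (37.5%), against 40.0% and 33.8%. The site of Stat6, the factor that IL-4 activates, TTCNNNNGAA, was found in 0 of 40, against 5.53% and 5.85%. No motif was thus more frequent among the proteasome genes than among genes of that depth. Of the promoters of the 3 immunoproteasome genes outside the rule, that of Psmb10 held a Stat6 site and that of Psmb9 a CCAAT box. A match is a description of these letters, not of binding. The Stat6 site that the paper describes in the TRIM24 promoter lies farther upstream than the bases searched here, so sites at such a distance would be missed. At a share of 5.53%, few matches would be found in any 40 promoters, so the 0 carries little meaning.

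The matches to the antioxidant element are shown because this is the element for which the coordinate control of proteasome genes is best known. The matching bases are in capitals, 5′ to 3′ on the strand of the gene, and the Psmc6 and Psmd12 matches are on the opposite strand. None of these 5 promoters held a CCAAT box. The log2 ratios of the 5 genes ran from 0.076 for Psmb6 to 0.39 for Psmc6, within the range of the other members. The Psmb6 window lies within the annotated span of the gene, since the table takes a start downstream of the first.
Psmb5, chr14:54618019-54618058, minus strand: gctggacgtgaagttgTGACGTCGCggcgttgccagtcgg
Psmb6, chr11:70525332-70525356, plus strand: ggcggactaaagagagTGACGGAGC
Psmc6, chr14:45329581-45329620, plus strand: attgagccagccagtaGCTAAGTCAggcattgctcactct
Psmd9, chr5:123228143-123228182, plus strand: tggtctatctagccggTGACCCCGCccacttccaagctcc
Psmd12, chr11:107479278-107479304, plus strand: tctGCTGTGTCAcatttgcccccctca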

How the data were processed

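Total RNA underwent Illumina HiSeq sequencing, per the labels. The authors aligned the reads with Bowtie to GRCm38/mm10 and estimated gene levels by RSEM, without naming versions. Each deposited table has an expected count per gene, which is not scaled for depth, an FPKM value scaled by the authors for length and depth, and a gene length weighted over transcripts. The deposited length values, in another column of the tables, are in bases. A gene absent from a table was set to 0. Of the gene numbers, 15587 were matched to symbols and coordinates through RefSeq (GRCm38.p6) and 36 were not. Groups came from the sample titles.

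Log2 ratios (IL-4 over NT) were taken from counts scaled to the library totals, with 0.5 count added. Counts were rounded for an exact binomial test of each of 15593 genes (the smaller tail doubled, BH adjustment over all). Such a test sets library against library and says nothing of the spread within a condition. The 95% intervals are exact (Clopper-Pearson) on unrounded counts. They cover only counting error, and reads copied by PCR are not separate molecules. A floor of 3 counts was 0.272 CPM in NT and 0.267 in IL-4. For the length trend, genes with 200 reads or more were ordered by length, and the median ratio of the closest 200 was taken. It was subtracted from ratios and interval limits as a fixed value, so intervals less the trend hold none of its error. Shared 31-base words came from GENCODE M21 transcripts and were examined for the 5 members with counts that were not whole. Each share is of the words of all transcripts of the gene together, so it can understate the share of the main transcript. Strand was not stated, so reads of overlapping genes cannot be told apart by strand, and 9 members overlap another listed gene.

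The members and lists were chosen with earlier results of these data known. Every member was named. Full values were given for called members, the 5 highest and 5 lowest ratios among those with at least 50 counts, the catalytic subunits, the activators, Psmf1 and Psmg1 to Psmg4. The procedure was run on simulated counts that held counting error only and planted changes larger than those of most members. That run says nothing of the spread between animals, nor of changes as small as most of these. Python 3.11.15, scipy 1.17.1, R 4.3.3, edgeR 4.0.16 and DESeq2 1.42.0 were used. Macrophages lacking Trim24 were not analysed here.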

Additional observations from a re-analysis of the deposited data

How the results depend on the processing

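No paired analysis was possible because NT and IL-4 hold 1 sample each. Settings were other scalings, FPKM in place of counts, subtraction of the length trend, other thresholds and filters, and assumed variation between animals. The alternatives for summed reads and the sum of Psme2 with Psme2b were added once the data had been seen.

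As reported, there were 28 members with an interval above 0, 3 below, 1 called higher and 1 called lower. Subtracting the length trend gave 16 above and 6 below, and medians of 0.08 for the alpha ring, 0.02 for the beta ring and 0.17 for the ATPases. It turned Psma7 to -0.03 and Psmb5 to -0.03. Over all 48 members the interval of 31 kept its side, while 11 lost and 4 gained an interval clear of 0, and the 2 just named lost it with a turn of sign. The 3 scalings moved ratios by no more than 0.037, and TMM and median-of-ratios scaling each gave 30 above.

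Psma8 was not called with FPKM plus 1 (0 higher), with an edgeR coefficient of variation of 0.4 (0 higher and 0 lower) or with at least 50 counts (0 higher). A fold over 1.5 with a BH value of at most 0.05 gave 2 higher. Whole counts alone gave 0 lower, since Psme2b drops out, and the ratio of Psme2b was 0.31 when summed with Psme2. The summed ratio of all members (0.13) was 0.17 with TMM, 0.16 with median-of-ratios, 0.11 without the 100 most abundant genes, and 0.21 without Psmd8 and Psmd2. That of the non-ATPase subunits was 0.01 with TMM and 0.12 without Psmd8 and Psmd2. With no filter on low counts the median of the 2 genes taken by name only was 0.09. Depth limits Psma8, Psmb11, Psmc3ip, Psme2b and Psmg4, with under 200 reads each.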
